A study of Mus musculus with 24 samples.

Results

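A set of 10 interferon-induced antiviral genes was followed across derivatives of EO771, a mouse mammary carcinoma cell line: the IFIT genes Ifit1, Ifit2, Ifit3 and Ifit3b, the viperin gene Rsad2 and its neighbour Cmpk2, the GTPase genes Mx1 and Mx2, and Rtp4 and Bst2, whose products act at membranes. They were found by gene symbol, and all 10 had a row in the batch 1 table of 55471 genes. In the batch 2 table of 13915 genes 9 had a row, and Ifit3b had none. In both batches the CCR7-PDPN cells held less RNA of 8 of the 9 genes tested than the control cells, by more than a factor of 2 in each, where 5.36% of all genes tested in batch 1 and 5.67% in batch 2 were lower by the same rule. The members were chosen with earlier results of these data known, so this count describes them and is not support for a shared change. The drop ran from 2.06-fold for Mx2 to 25.3-fold for Rtp4 among the members with reads enough for a fold in batch 2. Of the 8, Ifit3 passed the filter on low counts only because of the control cells, in both batches. The call of Mx2 was lost with some single libraries left out. Mx1, with at most 31 reads in a library, had no difference past the test in any comparison. Its fitted level in CCR7-PDPN cells was 1.45-fold and 1.48-fold lower than in the control cells of batch 1 and batch 2. Ifit3b was too sparse to be tested.

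X2 cells were EO771 transduced with the retroviral control vector, and CCR7 and CCR7-PDPN cells were EO771 transduced with a vector carrying mouse Ccr7, a chemokine receptor gene, and sorted as negative or positive for podoplanin (PDPN) on the surface. X2-PDPN cells were sorted from X2 cells for PDPN that had appeared there without an added gene. All 4 derivatives thus carried the pLNCX2 retroviral backbone, with tdTomato as its fluorescent reporter and G418 for selection, no clones were picked, and a sorted population may hold cells of the other kind. X2 and CCR7-PDPN were sequenced in both batches, CCR7 in the first only and X2-PDPN in the second only. Each derivative had 4 technical replicate libraries in a batch, so a p-value measures the spread between libraries of 1 cell population, and CCR7 cells and X2-PDPN cells were never sequenced together. The comparisons address how the added receptor and the PDPN-positive state each relate to interferon-induced transcripts.

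Type I interferon binds the receptor pair IFNAR1 and IFNAR2, and the kinases JAK1 and TYK2 then pass the signal on to the complex ISGF3, whose DNA-binding subunit is IRF9. ISGF3 binds a short DNA motif, the interferon-stimulated response element, in the promoters of its target genes, and IRF3 and IRF7, which act below the sensors of foreign RNA and DNA, can bind related letters. Tumour cell lines often hold a low level of such transcripts in culture, with no virus added.

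The response element is where ISGF3 meets its target genes, so it was looked for in the RefSeq promoter windows of GRCm38.p6. Each window reached from 250 bases before a gene's start to 50 bases after it. The letters searched, on both strands, were GAAA, any pair of bases, and GAAA again, which reads TTTC, any pair of bases and TTTC on the other strand. A window was found for 7 members, and those of Mx1, Mx2 and Rtp4 were not analysed here. The stretches below carry every match, 5′ to 3′ on the gene's own strand, with the matched letters in capitals.
Ifit1, chr19:34640770-34640828, plus strand: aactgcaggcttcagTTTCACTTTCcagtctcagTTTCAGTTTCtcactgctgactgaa
Ifit3, chr19:34583358-34583431, plus strand: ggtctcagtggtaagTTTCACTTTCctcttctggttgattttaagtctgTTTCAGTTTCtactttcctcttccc
Ifit3b, chr19:34607754-34607827, plus strand: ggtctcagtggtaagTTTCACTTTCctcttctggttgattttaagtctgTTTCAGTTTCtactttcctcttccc
Rsad2, chr12:26456548-26456587, minus strand: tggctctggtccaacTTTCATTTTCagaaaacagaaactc
Bst2, chr8:71537572-71537617, minus strand: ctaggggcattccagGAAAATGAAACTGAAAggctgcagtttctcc

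Ifit1, Ifit3 and Ifit3b each held 2 matches, Rsad2 held 1, and Bst2 held 2 that overlap. The first match of Ifit1 lay 104 bases before the start and the second 85, and the match of Rsad2 lay 120 bases before it. The printed stretches of Ifit3 and Ifit3b were the same in all 74 bases, and the 268 bases over which the windows of these genes could be laid side by side without gaps were 75.0% identical. No match lay in the 2 windows of Ifit2 or in the window of Cmpk2. Among all 32851 windows 1131 (3.44%) held the letters, and among the other antiviral effectors described further on 14 of 35 genes with a window did. The letters of a gamma-activated site, TTC, any 3 bases and GAA, a motif best known from the response to interferon gamma, were present in the windows of Ifit2 and Bst2 and in 2726 of all windows (8.30%). A match describes the letters only, and whether a factor binds there was not measured. Other forms of the motifs and sites outside the windows were not searched, so a window without a match does not show that a gene lacks the element.

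**Figure D1:**
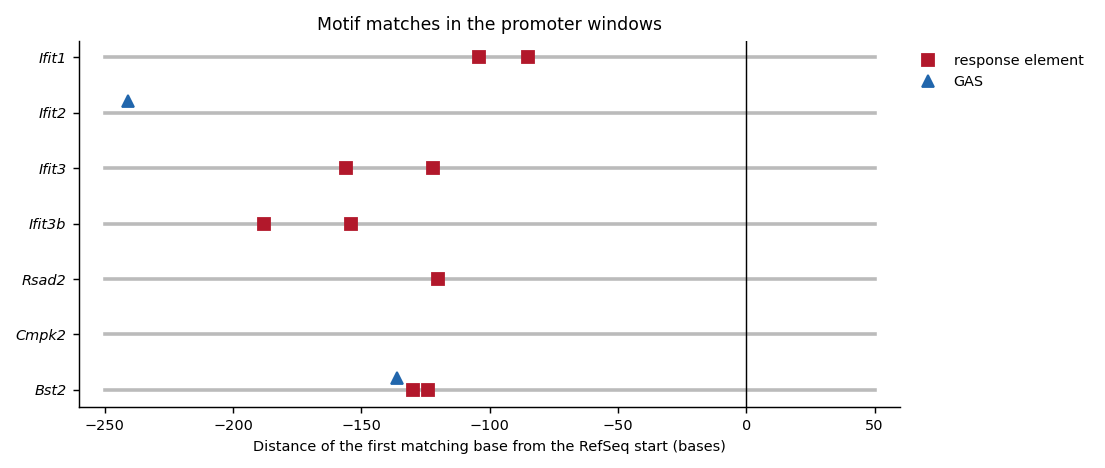
Position of motif matches in the promoter windows of 7 members, with the distance of the first matching base from the RefSeq start on the horizontal axis (bases, negative before the start) and a row for each gene. Red squares are response element matches and blue triangles gamma-activated site letters. All response element matches lie between 188 and 85 bases before the start, and the window of Cmpk2 held no match to either motif.

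The IFIT genes lie together on chromosome 19 of GRCm38, on the plus strand and within 99.316 kb, in the order Ifit2 (34550694 to 34576419), Ifit3 (34583531 to 34588731), Ifit3b (34607970 to 34613401) and Ifit1 (34640871 to 34650009). Rsad2 (chromosome 12, 26442746 to 26456452, minus strand) and Cmpk2 (26469204 to 26479837, plus strand) point away from each other across 12751 bases. Mx1 (97447035 to 97462907, minus strand) and Mx2 (97535308 to 97560900, plus strand) form a similar pair on chromosome 16, and Rtp4 lies elsewhere on that chromosome (23520291 to 23614222, plus strand). Bst2 lies on chromosome 8 (71534255 to 71537456, minus strand).

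Some of these genes share sequence, which limits how single-end reads of 75 bases can be assigned. Of the distinct 75-base words in the transcripts of Ifit3, 41.1% also occur in another gene, mainly Ifit3b, so the split of reads between Ifit3 and Ifit3b is uncertain. The share was 10.5% for Rtp4, with Gm45338, a gene that overlaps it and had at most 3 reads in any batch 1 library. It was 5.19% for Ifit1, 2.01% for Mx2, 1.71% for Mx1, and 0 for Ifit2, Rsad2, Cmpk2 and Bst2.

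Depth ran from 22275468 to 33395418 counts per library for batch 1 and 22788542 to 35721027 for batch 2. Ccr7 marked its cells, at 2798 ± 66.8 counts per 1000000 counts (CPM) in CCR7 and 3028 ± 145 for CCR7-PDPN against 0.345 ± 0.155 in X2 of batch 1 (mean ± SD, n = 4, as for all such values below). Pdpn reached 25.6 ± 1.49 CPM in the CCR7-PDPN libraries of batch 1 and 25.6 ± 0.367 in those of X2-PDPN, against 0.413 ± 0.147 in CCR7. Of the mammary epithelial tumour markers Krt8 was strong, at 230 ± 3.29 CPM in X2 of batch 1. Krt5, Krt14, Krt18, Epcam and Cdh1 had at most 9 reads in any batch 1 library. The fibroblast markers were mixed as well, with Pdgfra at 156 ± 3.08 and Pdgfrb at 68.1 ± 0.836 CPM in X2 of batch 1. Dcn had at most 3 reads in any batch 1 library, and Lum and Thy1 had none. In whole-culture RNA, fewer cells that hold a transcript and less of it in each cell cannot be told apart.

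Levels of different genes were compared as TPM, the share of transcripts per 1000000 after division by gene length. In X2 of batch 1 Bst2 stood far above the rest at 1040 ± 40.2 TPM, followed by Ifit2 (39.8 ± 1.16), Rtp4 (22.4 ± 2.41), Rsad2 (8.24 ± 1.25), Ifit1 (5.03 ± 0.651), Cmpk2 (2.86 ± 0.185) and Ifit3 (1.75 ± 0.544). Mx1 (0.697 ± 0.216) and Mx2 (0.681 ± 0.121) did not differ beyond their spread, and Ifit3b came last at 0.230 ± 0.122. X2 of batch 2 gave the same order apart from Mx1 and Mx2, which changed places within their spread, and there Cmpk2 (2.83 ± 0.514) and Ifit3 (1.81 ± 0.674) also overlapped within 1 SD. In CCR7-PDPN of batch 1 Rtp4, at 1.17 ± 0.121 TPM, had moved below Rsad2 (2.77 ± 0.233) and its mean was also under that of Ifit1 (1.54 ± 0.409), while Bst2 (395 ± 27.6) was still the highest and Ifit2 (5.25 ± 0.526) came next.

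**Figure D2:**
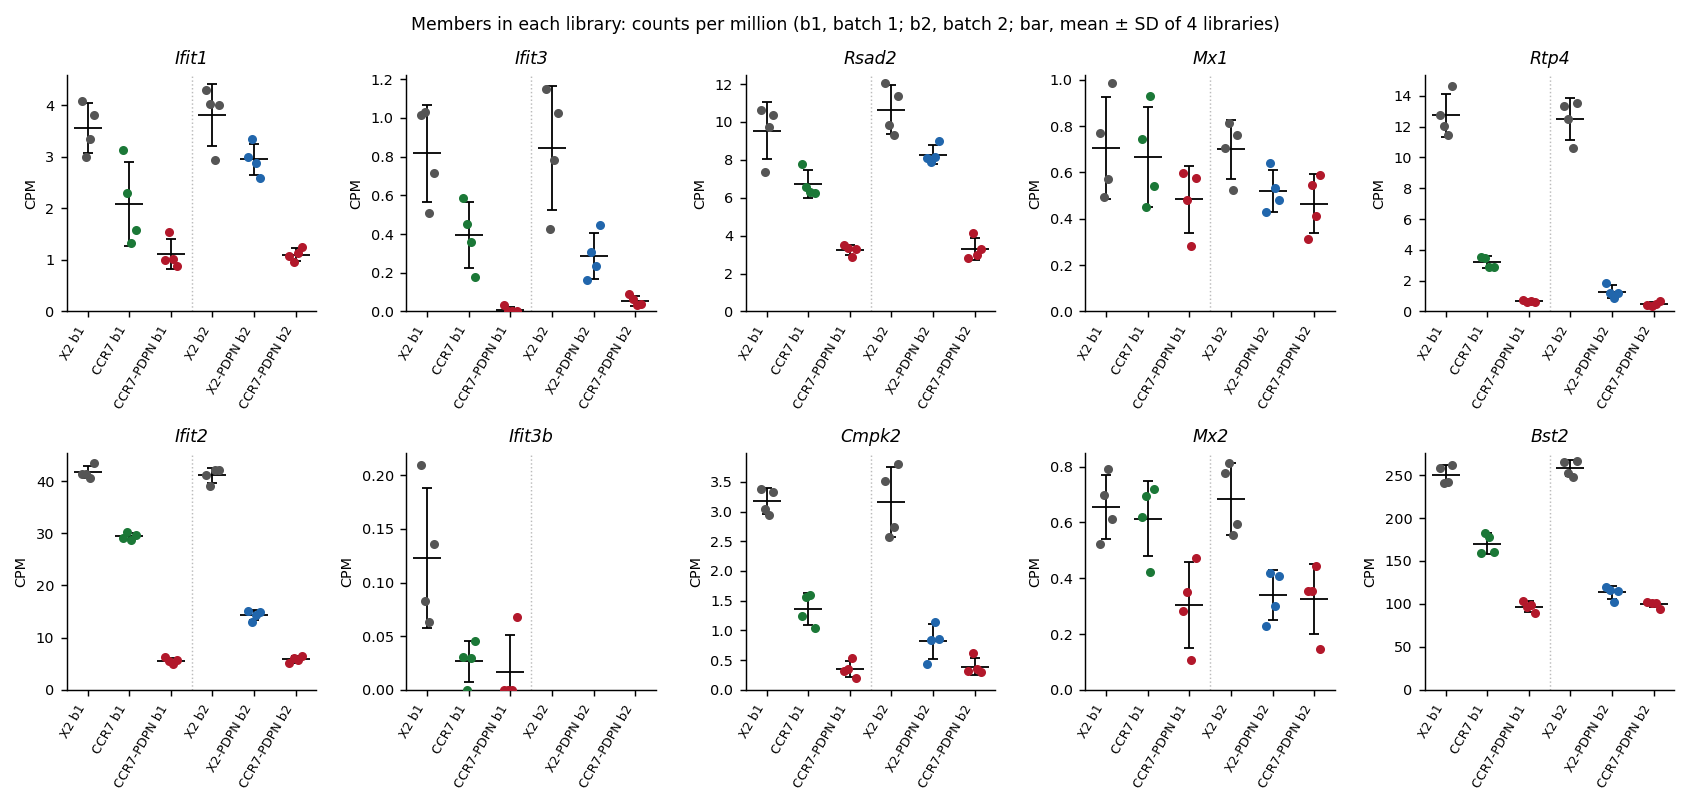
CPM (linear axes from 0) of the 10 genes in each library, with a panel for each gene and a column for each derivative and batch. Points are libraries, and bars are the mean ± SD of 4 libraries. Ifit2, Rtp4 and Bst2 fall into levels with hardly any overlap, Mx1 overlaps in every pair of groups of a batch, and Ifit3b has no values in batch 2.

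A gene was called lower or higher where edgeR gave an adjusted p under 0.05, corrected over all genes tested in the batch, and a log2 fold change beyond 1 in size. Of the 10 members 9 were tested in each batch, and Ifit3b was not. Ifit3 reached the filter's level of 0.3388 CPM in all 4 libraries of X2 alone among the groups of batch 1, and CCR7-PDPN cells by themselves would also have left Cmpk2, Mx1 and Mx2 below that filter. In batch 2 (level 0.336 CPM) X2 was again the only group with all 4 libraries at the level for Ifit3. There 1 X2-PDPN library and 0 CCR7-PDPN libraries reached it, and 3 CCR7 libraries had done so in batch 1. For Mx2, 2 X2-PDPN and 3 CCR7-PDPN libraries reached it beside all 4 of X2. The filter counted libraries over all groups of a batch and asked for 4. Ifit3 was thus tested only because of X2 in both batches, whereas Mx2 did not need X2. A gene tested only because of the group where it is high is favoured to show a difference. The counts below therefore describe the genes tested and are not support for a shared change, and each pair of comparisons that use the same group shares its libraries.

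CCR7 cells set against X2 cells in batch 1 differ by the added receptor and by the sort for cells without PDPN. They were also transduced separately, so the receptor cannot be told apart from other differences between the populations. The Pdpn level was higher in CCR7 cells (0.413 ± 0.147 against 0.0618 ± 0.0424 CPM). Rtp4 and Cmpk2 fell, so 2 of 9 members were called lower and none higher, where 3.18% of all 13261 genes tested were called lower. Disregarding the size of the change, 7 of 9 had an adjusted p under 0.05, all on the lower side, where 25.2% of all genes did, and the median log2 fold change of the members tested was -0.56 against 0.00 over all genes. The count of 2 became 4 without CCR7 replicate 1, when Ifit1 (log2 fold change -1.05) and Ifit3 (-1.21) also passed both thresholds.

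CCR7-PDPN cells against CCR7 cells, in the same batch, ask what comes with PDPN where the receptor is present. Here 5 of 9 members fell (Ifit2, Ifit3, Rsad2, Cmpk2 and Rtp4) against 2.6% of all genes called lower, and the median was -1.05. Ifit1 (-0.91), Mx2 (-0.97) and Bst2 (-0.82) had adjusted p-values under 0.05 with changes short of the threshold, which makes 8 of 9 by adjusted p alone, against 20.7% of all genes. In CCR7-PDPN against X2, 8 of 9 members were lower in batch 1, against 5.36% of all genes, with a median of -1.68.

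X2-PDPN cells against X2 cells in batch 2 ask what comes with PDPN without the added receptor. Again 5 of 9 members fell, against 1.55% of all genes, but they were Ifit2, Ifit3, Cmpk2, Rtp4 and Bst2, and the median was -1.18. By adjusted p alone it was 8 of 9, against 28.5% of all genes. CCR7-PDPN against X2-PDPN gave 6 of 9 members lower (Ifit1, Ifit2, Ifit3, Rsad2, Cmpk2 and Rtp4), against 6.4% of all genes, with a median of -1.29. CCR7-PDPN cells were not made from X2-PDPN cells but transduced and sorted separately, so the receptor cannot be told apart from other differences here. CCR7-PDPN against X2 gave 8 of 9 lower in batch 2, against 5.67% of all genes, with a median of -1.78. No member was called higher in any of the 6 comparisons.

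**Figure D3:**
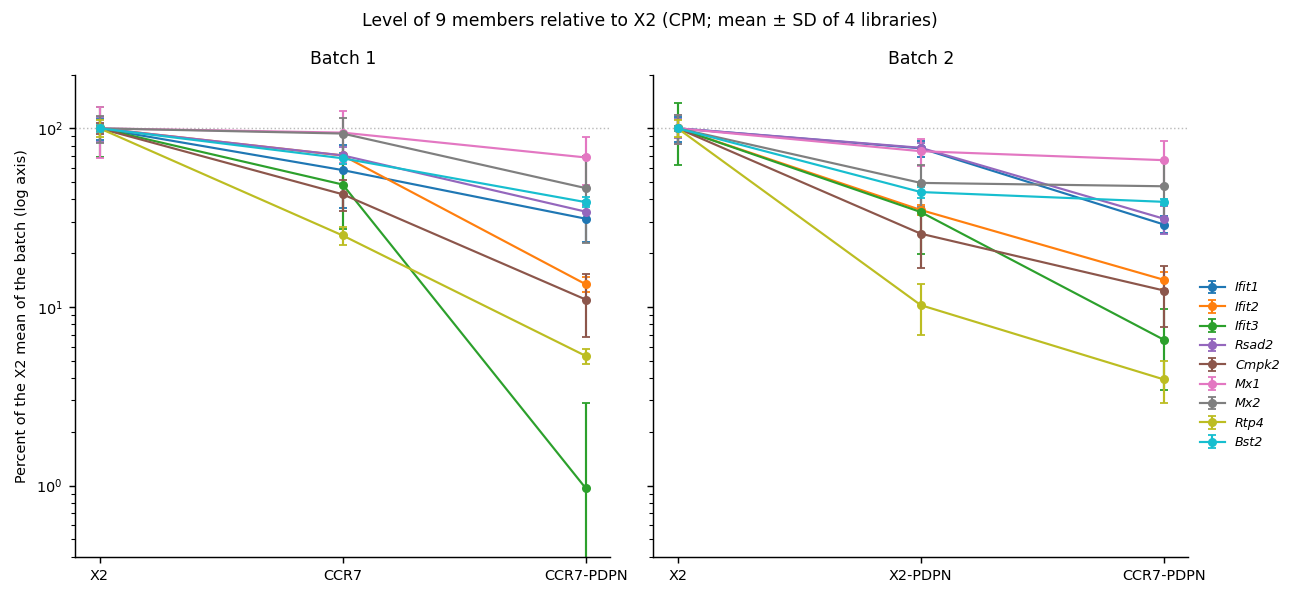
Level of the 9 tested members as a percent of the X2 mean of the same batch (log axis), along X2, CCR7 and CCR7-PDPN in batch 1 (left) and X2, X2-PDPN and CCR7-PDPN in batch 2 (right). Points are means of 4 libraries and bars the SD, which runs off the axis for Ifit3 in CCR7-PDPN of batch 1, where the 4 libraries held 1 read. Rtp4 loses most by the middle derivative in both batches, whereas Ifit1 and Rsad2 stay at 77.3% and 77.8% of X2 in X2-PDPN and are down to 29.0% and 31.2% in CCR7-PDPN.

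Ifit2, whose product binds AU-rich RNA and has been tied to cell death during infection, was the most precise of the family. Its libraries held 41.4, 41.4, 40.7 and 43.5 CPM in X2, 29.1, 30.2, 28.7 and 29.7 in CCR7, then 6.27, 5.54, 4.93 and 5.62 in CCR7-PDPN of batch 1. In batch 2 they held 41.3, 39.1, 42.1 and 42.1 in X2, 15.1, 13.1, 14.4 and 14.9 in X2-PDPN, then 5.07, 6.05, 5.69 and 6.55 in CCR7-PDPN. No groups of a batch overlapped, and the middle derivatives stood apart, at 70.5% of X2 for CCR7 and 34.9% for X2-PDPN.

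By edgeR, Ifit2 was 1.42-fold lower in CCR7 than in X2 (log2 fold change -0.51, standard error 0.05, adjusted p = 9.79e-09), which is under the fold threshold, and 5.24-fold lower in CCR7-PDPN than in CCR7 (-2.39, standard error 0.06, adjusted p = 1.65e-17). It was 2.87-fold lower in X2-PDPN than in X2 (-1.52, standard error 0.05, adjusted p = 4.67e-27) and 2.44-fold lower in CCR7-PDPN than in X2-PDPN (-1.29, standard error 0.07, adjusted p = 6.16e-20).

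Ifit1, whose product binds viral RNA by the form of its cap, followed another course. It held 4.09, 3.01, 3.35 and 3.81 CPM in X2 of batch 1, 3.13, 2.30, 1.32 and 1.58 in CCR7, then 1.01, 1.54, 1.02 and 0.880 in CCR7-PDPN. In batch 2 it held 4.30, 4.03, 2.94 and 4.01 in X2, 2.99, 3.34, 2.87 and 2.60 in X2-PDPN, then 1.07, 0.965, 1.14 and 1.25 in CCR7-PDPN. CCR7 libraries spread widely and overlapped both of the other groups, and X2-PDPN overlapped X2 but not CCR7-PDPN.

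The fold change of Ifit1 was 1.28 between X2-PDPN and X2 (log2 -0.36, standard error 0.12, adjusted p = 0.0134), and it fell 2.69-fold from X2-PDPN to CCR7-PDPN (log2 -1.43, standard error 0.16, adjusted p = 1.85e-10). Against CCR7 the change in CCR7-PDPN was -0.91 (standard error 0.26), and it passed the threshold without CCR7 replicate 3 (-1.10), CCR7 replicate 4 (-1.004) or CCR7-PDPN replicate 2 (-1.11). The ratio of Ifit1 to Ifit2 in TPM was 0.126 ± 0.0161 in X2, 0.105 ± 0.0410 for CCR7 and 0.296 ± 0.0831 for CCR7-PDPN libraries of batch 1. In batch 2 it was 0.138 ± 0.0237 for X2, 0.306 ± 0.0510 for X2-PDPN and 0.281 ± 0.0325 for CCR7-PDPN libraries. Both PDPN-positive derivatives thus held the higher ratio in every library, the lowest being 0.232, while the highest of the other libraries was 0.159.

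Ifit3, a partner of the other IFIT proteins, was sparse and is best given in reads. X2 of batch 1 held 91 reads over 4 libraries (16 to 29 each), CCR7 had 48 (4 to 19) and CCR7-PDPN 1, and the libraries of batch 2 held 98 in X2 (12 to 31), 35 with X2-PDPN (5 to 12) and 6 with CCR7-PDPN (1 or 2 in each library). From these reads, X2 exceeded CCR7-PDPN 98.6-fold in batch 1, with an exact 95% interval of 17.3 to 3939, and 16.1-fold in batch 2 (7.14 to 45.0). CCR7 exceeded CCR7-PDPN 50.2-fold (8.58 to 2022) and X2-PDPN did so 5.39-fold (2.24 to 15.7). These intervals cover counting error only.

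Ifit3 differed 1.95-fold between CCR7 and X2 (log2 fold change -0.96, standard error 0.32, adjusted p = 0.0150), and it passed the fold threshold without CCR7 replicate 2 (-1.02), X2 replicate 3 (-1.15) or X2 replicate 4 (-1.02) as well. It was 2.94-fold lower in X2-PDPN than in X2 (-1.56, standard error 0.32, adjusted p = 5.73e-05). Since the gene passed the filter through X2 alone in either batch, these p-values are no independent support for a difference. Ifit3b, a close copy of Ifit3, held 14 reads in X2 of batch 1, 3 for CCR7 and 2 for CCR7-PDPN, with 0 to 6 reads in a library. X2 exceeded CCR7 4.84-fold in these reads (exact 95% interval 1.35 to 26.3) and CCR7-PDPN 7.59-fold (1.74 to 68.8).

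Rsad2 encodes viperin, an enzyme that turns the nucleotide CTP into a chain terminator of viral polymerases, and Cmpk2 encodes a mitochondrial nucleotide kinase that helps to supply it. Rsad2 held 10.7, 7.37, 9.75 and 10.4 CPM in X2 of batch 1, 7.80, 6.55, 6.31 and 6.26 in CCR7, then 3.53, 3.33, 2.89 and 3.28 in CCR7-PDPN. Batch 2 libraries held 12.0, 9.82, 9.31 and 11.4 in X2, 8.09, 7.88, 8.16 and 8.98 in X2-PDPN, then 2.85, 4.15, 3.00 and 3.28 in CCR7-PDPN. CCR7-PDPN stood below every other library of its batch, and the highest CCR7 library overlapped X2.

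Cmpk2 had the lower level of this pair, and the middle derivatives already differed from X2. Its libraries held 3.39, 3.05, 2.94 and 3.34 CPM in X2 of batch 1, 1.24, 1.57, 1.59 and 1.04 in CCR7, then 0.315, 0.352, 0.528 and 0.203 in CCR7-PDPN. In batch 2 they held 3.52, 2.58, 2.74 and 3.81 in X2, 0.428, 0.835, 1.14 and 0.853 in X2-PDPN, then 0.311, 0.611, 0.348 and 0.295 in CCR7-PDPN. The groups of batch 1 did not overlap, and those of X2-PDPN and CCR7-PDPN in batch 2 did.

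Set side by side, Rsad2 was 1.29-fold lower in X2-PDPN than in X2 (log2 fold change -0.36, standard error 0.08, adjusted p = 2.97e-04) and Cmpk2 3.88-fold lower (-1.96, standard error 0.20, adjusted p = 3.95e-11). From X2-PDPN to CCR7-PDPN Rsad2 fell 2.46-fold (-1.30, standard error 0.10) and Cmpk2 2.02-fold (-1.01, standard error 0.30, adjusted p = 0.00355). The last value stood at the fold threshold and was under it without CCR7-PDPN replicate 1 (-0.94), 3 (-0.94) or 4 (-0.90), or without X2-PDPN replicate 2 (-0.998), 3 (-0.82) or 4 (-0.996). The call of Rsad2 between CCR7-PDPN and CCR7 (-1.05, standard error 0.12) was likewise under it without CCR7 replicate 1 (-0.96) or CCR7-PDPN replicate 3 (-0.996).

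The TPM ratio of Cmpk2 to Rsad2 was 0.353 ± 0.0526 in X2, 0.212 ± 0.0507 for CCR7 and 0.115 ± 0.0541 for CCR7-PDPN libraries of batch 1. In batch 2 it was 0.308 ± 0.0306 for X2, 0.102 ± 0.0372 for X2-PDPN and 0.120 ± 0.0248 for CCR7-PDPN libraries. The neighbouring genes therefore did not keep their proportion, and in batch 2 the proportion of X2-PDPN and CCR7-PDPN did not differ beyond its spread.

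Mx1 and Mx2 encode dynamin-like GTPases that block incoming viral particles, and many inbred mouse strains carry a defective Mx1. Mx1 had 12 to 29 reads in a library of X2 in batch 1, 12 to 31 for CCR7 and 8 to 19 for CCR7-PDPN, and the libraries of all groups overlapped in both batches. Its log2 fold changes lay between -0.56 and -0.06, with standard errors of 0.27 to 0.30 and adjusted p-values from 0.0716 to 0.883 and no more than 31 reads in any library. A difference in Mx1 was not detectable at this depth.

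Mx2 had 15 to 25 reads in a library of X2 in batch 1, 14 to 20 for CCR7 and 3 to 14 for CCR7-PDPN. In CPM the X2 libraries held 0.524, 0.700, 0.791 and 0.613 and the CCR7-PDPN libraries 0.284, 0.352, 0.106 and 0.474, which do not overlap. Mx2 was 2.14-fold lower in CCR7-PDPN than in X2 in batch 1 (log2 fold change -1.10, standard error 0.32, adjusted p = 0.00592) and 2.06-fold lower in batch 2 (-1.04, standard error 0.31, adjusted p = 0.00344). Between X2-PDPN and X2 the value was -0.99 (standard error 0.30, adjusted p = 0.00484), and between CCR7-PDPN and X2-PDPN -0.05 (standard error 0.36, adjusted p = 0.912). In batch 2, 2 X2-PDPN and 3 CCR7-PDPN libraries also reached the filter's level, so Mx2 did not need X2 to be tested.

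All calls of Mx2 lay close to the fold threshold. The call against X2 was lost without CCR7-PDPN replicate 3 (-0.83) or X2 replicate 3 (-0.98) in batch 1, and without CCR7-PDPN replicate 4 (-0.81), X2 replicate 1 (-0.98) or X2 replicate 2 (-0.95) in batch 2. Between CCR7-PDPN and CCR7 (-0.97) a call was gained without CCR7 replicate 3 (-1.13) or CCR7-PDPN replicate 2 (-1.05) or 4 (-1.25). Between X2-PDPN and X2 a call was gained without X2 replicate 3 (-1.08) or 4 (-1.05) or X2-PDPN replicate 2 (-1.13) or 4 (-1.07). The adjusted p stayed under 0.05 in each of these cases.

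Rtp4, a receptor transporter protein that binds RNA and restricts flaviviruses, stood furthest below X2 among the members with more than a few reads in each group. It held 12.8, 12.0, 11.5 and 14.7 CPM in X2 of batch 1, 3.56, 3.48, 2.88 and 2.88 in CCR7, then 0.756, 0.641, 0.704 and 0.609 in CCR7-PDPN. In batch 2 it held 13.4, 12.5, 10.6 and 13.5 in X2, 1.84, 1.22, 0.869 and 1.19 in X2-PDPN, then 0.445, 0.354, 0.506 and 0.663 in CCR7-PDPN. No groups of a batch overlapped.

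Rtp4 was 3.96-fold lower in CCR7 than in X2 (log2 fold change -1.99, standard error 0.10, adjusted p = 3.25e-13) and 9.71-fold lower in X2-PDPN than in X2 (-3.28, standard error 0.13, adjusted p = 3.18e-23). It fell 4.72-fold between CCR7 and CCR7-PDPN (-2.24, standard error 0.16, adjusted p = 5.99e-10) and 2.61-fold from X2-PDPN to CCR7-PDPN (-1.38, standard error 0.25, adjusted p = 8.01e-06). In CCR7-PDPN against X2 the drop was 18.7-fold in batch 1 and 25.3-fold in batch 2.

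Bst2 encodes tetherin, which holds budding virions to the cell surface, and was abundant enough for small differences to be seen. It held 258, 241, 242 and 261 CPM in X2 of batch 1, 160, 183, 178 and 161 in CCR7, then 103, 96.3, 98.3 and 88.9 in CCR7-PDPN. The batch 2 libraries held 265, 252, 248 and 266 in X2, 120, 116, 102 and 115 in X2-PDPN, then 103, 101, 101 and 94.5 in CCR7-PDPN. Only X2-PDPN and CCR7-PDPN overlapped.

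Bst2 was 1.47-fold lower in CCR7 than in X2 (log2 fold change -0.56, standard error 0.05, adjusted p = 5.71e-08), 1.76-fold lower in CCR7-PDPN than in CCR7 (-0.82, standard error 0.05) and 2.27-fold lower in X2-PDPN than in X2 (-1.18, standard error 0.04, adjusted p = 6.07e-18). Between CCR7-PDPN and X2-PDPN it differed 1.14-fold (-0.18, standard error 0.04, adjusted p = 4.26e-04). The 119 genes tested within 5 Mb of Bst2 had median log2 fold changes of -0.26 in CCR7 against X2, 0.03 in CCR7-PDPN against CCR7 and -0.19 in X2-PDPN against X2. Their part in the values of Bst2 was not tested. Within CCR7-PDPN the TPM ratio of Bst2 to Rtp4 was 338 ± 14.4 in batch 1 and 507 ± 141 in batch 2, against 46.7 ± 3.26 and 48.9 ± 4.14 in X2.

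**Figure D4:**
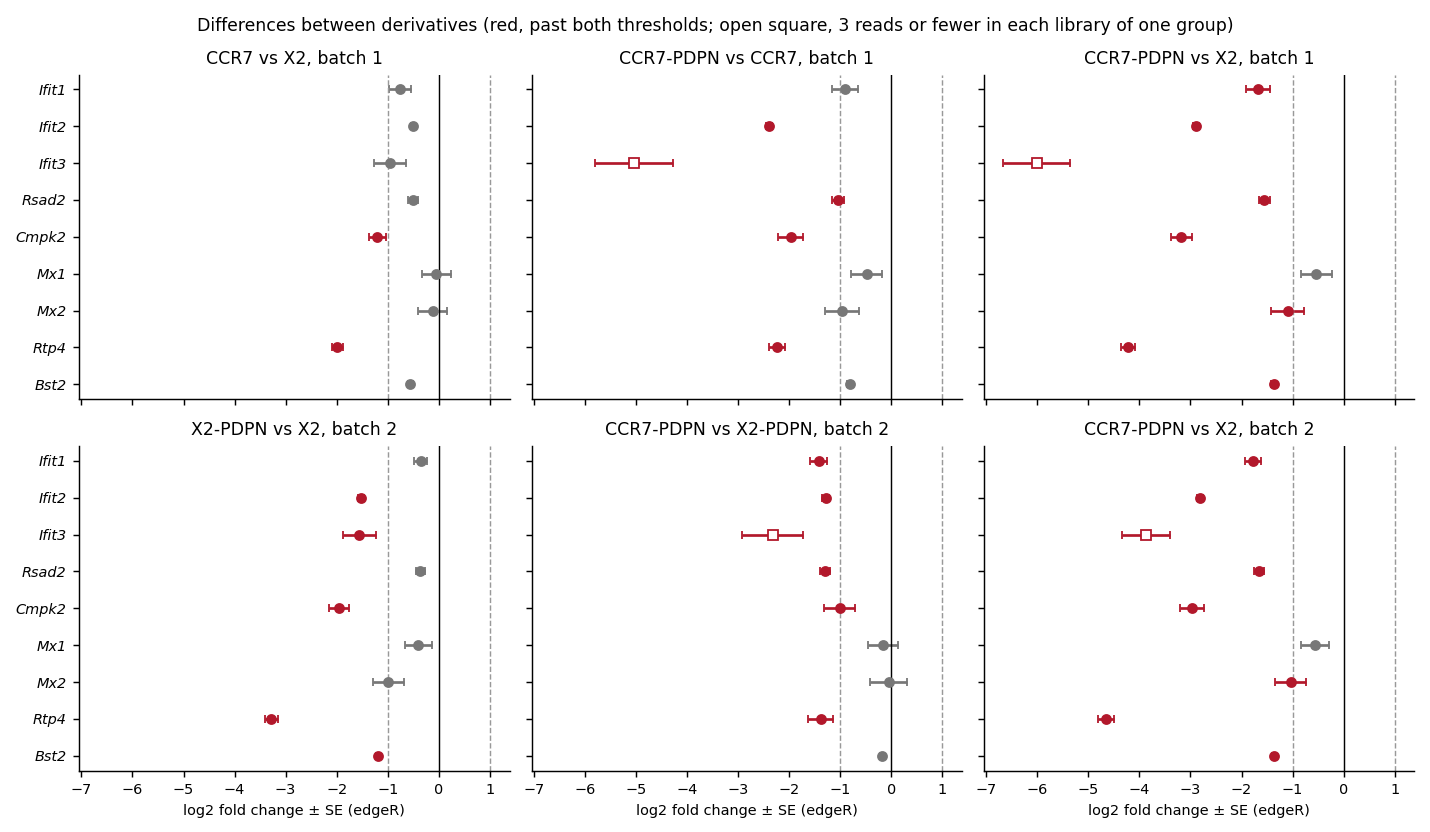
Log2 fold changes ± standard error (edgeR) of 9 members in the 6 comparisons, batch 1 above and batch 2 below, with the fold threshold as dashed lines. Red marks a gene past both thresholds, and open squares stand for Ifit3 where each library of 1 group had 3 reads or fewer, so that the fitted value is no measure of the size. All points lie below 0, and Mx1 is grey in every panel.

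CCR7-PDPN against X2 was the only comparison made in both batches, on separate libraries. The difference between batches was tested in 1 fit over all 24 libraries: 0 of 9 members and 0 of 13690 genes had an adjusted p under 0.05 (0% called), DESeq2 also gave 0, and 293 genes (2.14%) had an unadjusted p under 0.05. The batch 1 minus batch 2 values were -0.09 for Ifit2 (standard error 0.09), 0.00 for Bst2 (standard error 0.07), 0.11 for Rsad2 (standard error 0.17), -0.21 for Cmpk2 (standard error 0.39) and 0.44 for Rtp4 (standard error 0.30). They were 0.11 for Ifit1 (standard error 0.30), 0.03 for Mx1 (standard error 0.40) and -0.05 for Mx2 (standard error 0.45), and -2.13 for Ifit3 (standard error 1.24), which rests on 1 read in CCR7-PDPN of batch 1 and 6 in batch 2.

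Whether the step from PDPN-negative to PDPN-positive differed with and without the added receptor was tested as the difference of both differences, CCR7-PDPN minus CCR7 in batch 1 minus X2-PDPN minus X2 in batch 2. Of 9 members 5 had an adjusted p under 0.05, where 40.8% of all 13690 genes did in either direction, so the members' share was not far from the background. Ifit2 (-0.86, standard error 0.08, adjusted p = 1.39e-10), Rsad2 (-0.68, standard error 0.16, adjusted p = 5.87e-04) and Ifit3, which had 1 read in CCR7-PDPN of batch 1, dropped more with the receptor. Rtp4 (1.05, standard error 0.26, adjusted p = 0.00137) and Bst2 (0.37, standard error 0.07, adjusted p = 2.16e-04) dropped more without it. Ifit1 (-0.55, standard error 0.27, adjusted p = 0.107), Cmpk2 (-0.01, standard error 0.24), Mx1 (-0.07, standard error 0.39) and Mx2 (0.02, standard error 0.47) did not pass. Ifit1 passed without CCR7 replicate 3 (-0.75) or CCR7-PDPN replicate 2 (-0.76) of batch 1. The receptor and the batch cannot be told apart in this contrast.

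The rest of the pathway was read from lists of its parts. No gene of 20 interferon ligands had reads enough to be tested: in batch 1 Ifnb1 had 0 to 4 reads in a library, Ifnz, Ifng and Ifnl3 had at most 1, and all others had none. Of 7 genes for the receptor and ISGF3, 1 was lower against X2 for CCR7 cells, 1 for CCR7-PDPN cells of batch 1 and 1 for X2-PDPN cells, and none was lower in CCR7-PDPN against CCR7 or against X2-PDPN. The gene called each time was Irf9, the DNA-binding subunit of ISGF3, which was at 45.3 ± 3.18 CPM in X2 of batch 1, at 20.4 ± 1.88 in the CCR7 and 13.2 ± 1.12 in the CCR7-PDPN libraries, and at 17.1 ± 1.60 in X2-PDPN. Over the comparisons of this list 1.55% to 6.4% of all genes tested were called lower. Ifnar1, a receptor chain, had a log2 fold change of 0.36 in CCR7-PDPN against X2 of batch 1.

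Of the 14 tested genes of 15 inducers (sensors, adaptors and IRFs), 4 were lower in CCR7 against X2 and 5 in CCR7-PDPN against X2 in either batch. X2-PDPN against X2 gave 5 lower, and CCR7-PDPN gave 2 against CCR7 and 2 against X2-PDPN, with none higher in any comparison. Over these comparisons 1.55% to 6.4% of all genes tested were called lower. In CCR7-PDPN against X2 of batch 1 the RNA sensor genes Rigi (-1.33) and Ifih1 (-3.07) and the factor gene Irf7 (-2.65) came first by adjusted p, while the sensor gene Zbp1 had a larger fold change (-3.92, standard error 0.61). In CCR7-PDPN against X2-PDPN Ifih1 was lower (-1.19, standard error 0.15), while Irf7 was at 0.16 and Rigi at 0.25. Of 8 negative regulators Usp18, which holds back the receptor, was the only one called, at -3.95 in CCR7-PDPN against X2 of batch 1 and -3.16 in X2-PDPN against X2. Ptpn2 (-0.51) and Pias1 (0.36) were within the fold threshold.

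Other antiviral effectors formed the largest list, with 40 of 42 genes tested in batch 1 and 41 in batch 2. Of these 7 were lower in CCR7 against X2, 15 in CCR7-PDPN against CCR7, 21 and 19 in CCR7-PDPN against X2 of batch 1 and batch 2, and 19 in X2-PDPN against X2. Over these comparisons 1.55% to 5.67% of all genes tested were called lower. The first effectors by adjusted p in CCR7-PDPN against X2 of batch 1 were Oas1a (-2.82), Slfn2 (-3.91) and Ifi44 (-4.27). Ifitm1, a membrane barrier to virus entry, went the other way in batch 2 and was higher in X2-PDPN (3.35, standard error 0.56).

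In CCR7-PDPN against X2-PDPN, 6 of 9 members were lower and none higher, with a median of -1.29. Of 41 effectors 4 were lower and 3 higher, with a median of -0.02. Of all genes, 6.4% were called lower and 2.76% higher. The higher effectors were Oas1a (1.11, standard error 0.13), Ifi27 (1.16, standard error 0.04) and Oas1c (1.69, standard error 0.30). The lists were described by counts and medians only, and the difference between them was not tested.

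**Figure D5:**
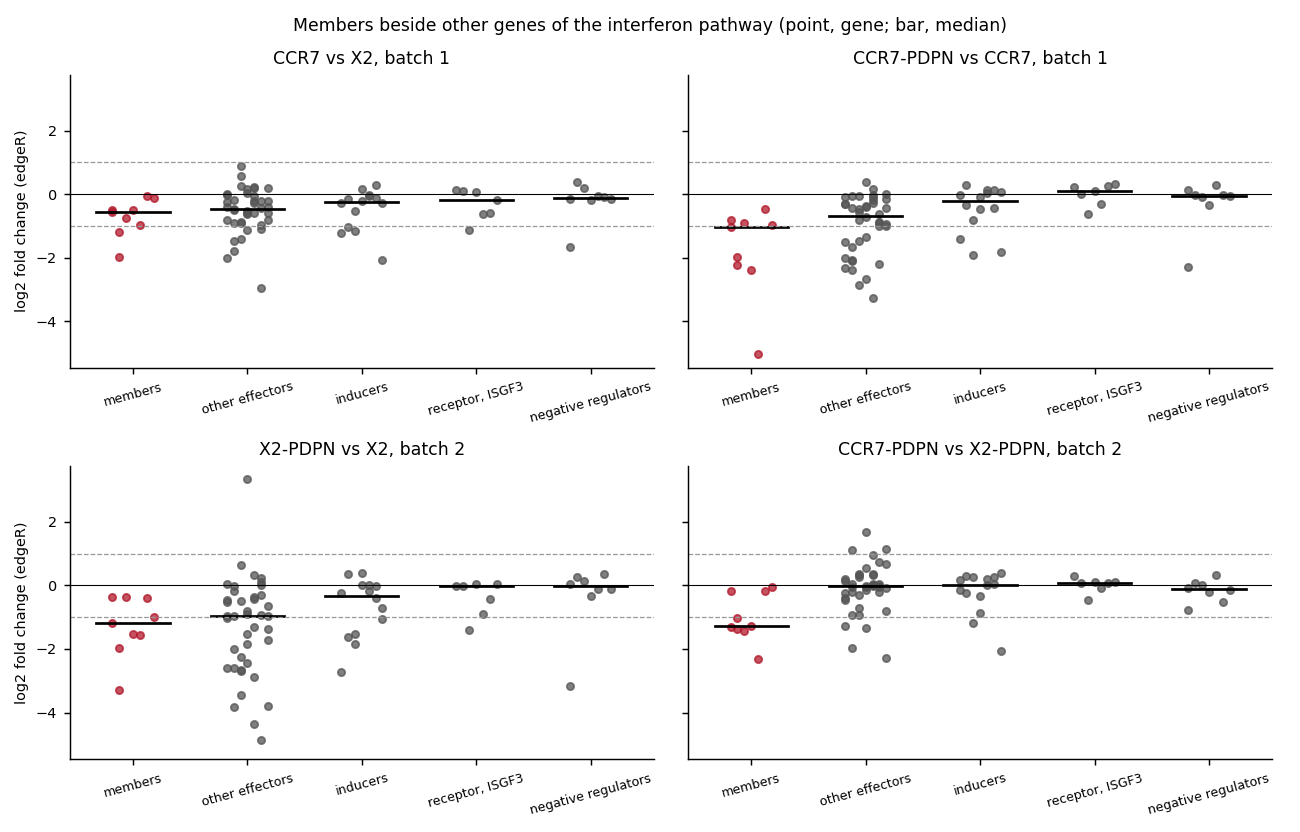
Log2 fold changes (edgeR, vertical axis) of the tested members (red) and of 4 lists of the interferon pathway (grey) in 4 comparisons, with a point for each gene and the median as a bar. Dashed lines mark the fold threshold. In CCR7-PDPN against X2-PDPN the median of the members lies at -1.29 and that of the other effectors at -0.02.

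Genes near the members were read for a regional change. Of the tested genes within 250 kb (27 in batch 1 and 28 in batch 2), 2 were lower and 2 higher in CCR7 against X2, 2 and 0 in CCR7-PDPN against CCR7, and 4 and 0 in CCR7-PDPN against X2 of batch 1. In batch 2 it was 1 lower and 1 higher in X2-PDPN against X2, 3 and 1 in CCR7-PDPN against X2, and 4 and 2 in CCR7-PDPN against X2-PDPN. Of all genes tested in batch 1, 3.18%, 2.6% and 5.36% were called lower in these comparisons, and 437, 88 and 542 of 13261 higher. For batch 2 it was 1.55%, 5.67% and 6.4% lower, and 467, 527 and 367 of 13314 higher, in the order given. The medians over the neighbours ran from -0.30 (CCR7 against X2) to 0.09 (CCR7-PDPN against CCR7). Beside the IFIT genes Lipa, for lysosomal acid lipase, was lower in every comparison (-1.31 in CCR7 against X2, -2.54 in CCR7-PDPN against X2 of batch 1, -1.19 in X2-PDPN against X2), and Fas, for the death receptor, was lower in CCR7-PDPN against X2 (-1.55 in batch 1, -1.70 in batch 2) but at 0.19 in X2-PDPN against X2. Fcho1, beside Bst2, was lower in CCR7 against X2 (-1.51) and in CCR7-PDPN against X2 (-1.75 in batch 1, -2.30 in batch 2). It was also lower in CCR7-PDPN against X2-PDPN (-3.85), but at -0.24 in CCR7-PDPN against CCR7 and higher in X2-PDPN against X2 (1.55). Ushbp1, also beside Bst2, was lower in CCR7-PDPN against X2 of batch 1 (-1.71), against CCR7 (-1.21) and against X2-PDPN (-1.58). Beside Mx1 and Mx2, Fam3b was higher in CCR7 against X2 (1.06), in CCR7-PDPN against X2 of batch 2 (1.07) and against X2-PDPN (1.03), and 2210009P08Rik was higher in CCR7 against X2 (1.54) and in CCR7-PDPN against X2-PDPN (1.17).

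The pattern of the members, taken as the mean of their log2 CPM centred on X2 of the batch, was set beside that of 13681 other genes over 24 libraries. The closest by Pearson correlation were Ifih1 (r = 0.987), Sp100 (0.983), Arhgap29 (0.982), Otud1 (0.981), Ccn1 (0.979), Oasl1 (0.978), Rabgap1l (0.977), Fam107b (0.977), Map6 (0.976) and Psmb8 (0.976). Among the members the correlation with the mean of the others ran from 0.975 for Ifit2, 0.955 for Bst2 and 0.953 for Cmpk2 down to 0.868 for Ifit1, 0.724 for Mx2 and 0.594 for Mx1. The 24 points form 6 groups of 4 libraries and share their cells, so these values only describe, and ranking by Spearman correlation kept 1 of the 10 genes.

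Leukocytes are another place where interferon-induced genes are active, and their markers were read in the same libraries. Of 14 markers Cd3e and Siglech had no read in batch 1, and Ptprc, the common leukocyte antigen, had at most 4 in a library, while Lyz2 had 154 to 214 in X2 and Cd79a 83 to 111 in CCR7-PDPN. Their summed level was 8.64 to 10.2 CPM in X2, 4.33 to 5.18 for CCR7 libraries and 3.89 to 5.16 for CCR7-PDPN libraries of batch 1. In batch 2, where the table holds 4 of the 14 markers, the sum of those 4 was 8.84 to 10.6 for X2, 10.8 to 11.7 for X2-PDPN and 3.68 to 4.00 for CCR7-PDPN libraries. Lyz2 (-3.24 in CCR7-PDPN against X2 of batch 1) and S100a8 (-3.07) were lower with the members and Cd79a (2.71) was higher, while in X2-PDPN against X2, where 5 members fell, Lyz2 was at -0.19 and S100a8 was higher (1.00). The part of such cells in the members' values was not tested.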

How the data were processed

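Polyadenylated RNA of 24 libraries (4 per derivative and batch) was prepared as stranded libraries and sequenced in single-end mode. The authors mapped reads to GRCm38 (mm10) and deposited counts per Ensembl gene from featureCounts, without normalisation. The aligner is not given in the sources used here. The batch 2 table holds fewer genes than the batch 1 table, by a rule that is not stated.

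Groups were compared inside each batch by edgeR 4.0.16 (R 4.3.3): TMM factors (0.986 to 1.017), filterByExpr, robust quasi-likelihood fits over 12 libraries and Benjamini-Hochberg adjustment over 13261 or 13314 genes. Called genes passed 0.05 in adjusted p and 1 in the size of the log2 fold change. The 2 differences of differences used 24 libraries and 13690 genes, with adjusted p alone. The log2 fold change, without its sign, divided by the root of F gave the standard error. TPM used the deposited gene lengths. Ratios of sparse reads have exact binomial 95% intervals. Scripts were tested on simulated data. Alternatives were upper-quartile or RLE factors, DESeq2 1.42.0, other filters and library sets, a replicate block, no fold threshold, and each library left out.

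Members and lists were chosen with earlier results of these data known. All 10 members are named, and of each list the first 3 by adjusted p in CCR7-PDPN against X2 of batch 1, genes called against the list's direction, Zbp1 (chosen after its value was seen), neighbours within 250 kb that were called and the 10 most similar genes. Krt8, Pdgfra, Ptprc and other markers are named as checks of the cells. An item that the rule would name is not reported here. Endothelial markers (3 of 5 tested) had 0 or 1 gene called in each direction and fibroblast markers (2 of 5 tested) 0 in each comparison. No 2 libraries of a group agreed within sampling noise (chi-square per degree of freedom 1.99 to 20.4 over 36 pairs). CCR7 replicate 1 gave 20.4, 16.0 and 12.3 with the other CCR7 libraries, and the next highest pair gave 7.81.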

Additional observations from a re-analysis of the deposited data

Results flagged for a closer look

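Cmpk2 in replicate 2 of CCR7-PDPN in batch 2 stood above the other libraries of its group, at 0.611 CPM against 0.295 to 0.348 CPM, with a gap large for the group's range by Dixon's test. It was 1 of 53 groups of 4 libraries examined, and about 1 in 20 is marked by chance.

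The change from PDPN-negative to PDPN-positive cells differed with and without the added receptor, in the test of the difference itself over all 24 libraries, for Ifit2 (-0.86 on the log2 scale), Ifit3 (-3.49), Rsad2 (-0.68), Rtp4 (1.05) and Bst2 (0.37). The value of Ifit3 rests on 1 read in CCR7-PDPN of batch 1 and does not measure a size. Cells with the receptor came from batch 1 and cells without it from batch 2, so batch and receptor cannot be told apart, and 40.8% of all genes passed the same test.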

How the results depend on the processing

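Over 72 values (9 members in 8 contrasts) and 1594 alternatives, 1511 kept their direction and their side of the thresholds, 21 gained a call, 13 lost one and 49 changed sign. The 13 losses and 49 changes of sign all came from leaving out 1 library. The counts of members called lower changed by over 1.5 times only without a fold threshold, to 7 in CCR7 against X2 (25.2% of all genes), 8 in CCR7-PDPN against CCR7 (20.7%) and 8 in X2-PDPN against X2 (28.5%), and, in CCR7 against X2, with single libraries left out (2 to 4).

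Signs changed in values that passed no test. With each library left out in turn, log2 fold changes ranged as follows. In CCR7 against X2 they were -0.27 to 0.15 for Mx1 and -0.22 to 0.035 for Mx2. In CCR7-PDPN against X2-PDPN they were -0.25 to 0.18 for Mx2. In the PDPN difference with minus without the receptor they were -0.27 to 0.18 for Cmpk2, -0.22 to 0.14 for Mx1 and -0.26 to 0.28 for Mx2. In batch 1 minus batch 2 they were -0.093 to 0.22 for Ifit1, -0.45 to 0.11 for Cmpk2, -0.092 to 0.23 for Mx1, -0.33 to 0.22 for Mx2 and -0.039 to 0.036 for Bst2.

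Replicate numbers did not pair the libraries: of 24 same-numbered pairs 1 correlated above 0.1 (range -0.12 to 0.11). With a replicate block 3 members were called lower in CCR7 against X2, Ifit3 among them (-1.005), and Mx2 passed in X2-PDPN against X2 (-1.01). DESeq2 gained the same calls (-1.01 and -1.01). The median over the members tested moved with the filter, for example from -1.68 to -2.29 in CCR7-PDPN against X2 of batch 1 with at least 50 counts in 4 libraries, where fewer members are tested. Depth limits Ifit3, Ifit3b, Mx1 and Mx2, with at most 31 reads in a library.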
